A study of Mus musculus with 12 samples.

Results

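MHC class I presentation is described here through 8 named genes: the heavy chains *H2-K1*, *H2-D1* and *H2-T23*, the light chain *B2m*, the peptide transporter subunits *Tap1* and *Tap2*, the loading factor *Tapbp* and the transcriptional activator *Nlrc5*. All 8 were found by symbol among the 55401 genes of the count table, and all 8 were among the 25771 genes with enough counts to be tested. RNA was sequenced from Pax7-ZsGreen+ satellite cells, the muscle stem cells, sorted from hind limb muscle of adult mice aged 3 to 4 months. WT mice were Cxcr4 FL/FL without cre, and Cxcr4KO mice were Cxcr4 FL/FL with Pax7-creERT2, which deletes the chemokine receptor gene in Pax7-expressing cells. Both genotypes carried Pax7-ZsGreen and received tamoxifen at 80 mg/kg on 5 days, so only cre and the deletion differed by design. There were 4 WT and 4 Cxcr4KO libraries of freshly sorted cells, called quiescent, and 2 WT and 2 Cxcr4KO libraries of cells kept overnight in growth medium, called activated. The labels do not give the MHC haplotype of the mice and do not say whether libraries came from separate animals, so p-values measure the spread between these libraries.

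Class I molecules show peptides from inside the cell to CD8 T cells and to natural killer cells. Proteasomes cut proteins into peptides, TAP carries the peptides into the endoplasmic reticulum, and tapasin holds the empty heavy chain and beta-2 microglobulin beside TAP until a peptide is bound. Nlrc5 acts with RFX, CREB/ATF and NF-Y factors on a conserved promoter element made of X and Y boxes, and interferon and NF-kB act on sites further upstream. Interferon also induces immunoproteasome subunits, which replace constitutive ones and change the peptides made. Class I is found on most nucleated cells at levels that differ widely between tissues, and skeletal muscle fibres are known for low levels.

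Stretches of promoter that carry the letters of these regulators' sites were read from RefSeq windows of GRCm38.p6, because they show what the classical heavy chain promoters share. The *H2-K1* window covers the 250 bases before the gene's start, on the minus strand at chr17:34000348-34000597, and capitals mark the NF-kB, X2 and Y motifs in that order.
H2-K1 window: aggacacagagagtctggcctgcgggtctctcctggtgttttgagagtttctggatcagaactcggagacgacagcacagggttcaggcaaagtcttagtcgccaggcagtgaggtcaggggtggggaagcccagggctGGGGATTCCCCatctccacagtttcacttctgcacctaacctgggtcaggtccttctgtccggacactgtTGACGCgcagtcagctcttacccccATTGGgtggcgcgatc

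The same elements of *H2-D1* were set beside those of *H2-K1*. Capitals mark TGACGC, the X2 motif of the X box, and ATTGG, the Y box read on the other strand, with 19 bases between them in both genes.
H2-K1 X2 to Y, chr17:34000359-34000388, minus strand: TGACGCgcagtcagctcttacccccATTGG
H2-D1 X2 to Y, chr17:35262993-35263022, plus strand: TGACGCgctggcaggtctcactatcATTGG
H2-K1 NF-kB, chr17:34000439-34000467, minus strand: cccagggctGGGGATTCCCCatctccaca
H2-D1 NF-kB, chr17:35262914-35262942, plus strand: cccagggctGGGGATTCCCCatctcctca
The X2 to Y stretches were identical at 23 of 30 bases, and the NF-kB stretches at 28 of 29. TGACGC followed by ATTGG after 19 bases stood in 9 of 32851 mouse windows of 300 bases, or 0.0274%, and these belonged to 8 genes. They were *H2-K1*, *H2-D1* and *H2-M3*, the heavy chain that presents bacterial formyl peptides, and 5 genes that are not class I: *Cdnf*, *Gm33299*, *Hspa14*, *Nrarp* and *Tecpr1*. Only these exact letters were searched. In the *B2m* window the variant TGACGA is followed by ATTGG after 19 bases and was not counted.

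Interferon-type letters, in the form searched, stood before the RefSeq starts of *B2m* and *H2-T23*. Capitals mark the interferon-stimulated response element (ISRE, searched on either strand as TTTC, any 2 bases and TTTC) and, 3 bases downstream in *B2m*, an NF-kB motif.
B2m ISRE and NF-kB, chr2:122147545-122147573, plus strand: catGAAACTGAAAatgGGAAAGTCCCttt
H2-T23 ISRE, chr17:36032806-36032835, minus strand: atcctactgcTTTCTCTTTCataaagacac
Windows were available for 6 members: *H2-K1*, *H2-D1*, *H2-T23*, *B2m*, *Tap1* and *Tapbp*. They are set by RefSeq starts, and the GENCODE models of *H2-D1*, *H2-T23* and *Tapbp* given below begin further upstream. The sites shown for *H2-D1* and *H2-T23* and the whole *Tapbp* window therefore lie inside those models. Searched on both strands, CCAAT stood in 6 of these 6 and in 37.4% of all windows, TGACGC in 2 of 6 and 7.4% of all, and TGACGT in 0 of 6 and 7.51% of all. The ISRE in this exact form stood in 2 of 6 and 3.44% of all. Near forms were not counted, such as agtttcacttct, which follows the NF-kB motif in the *H2-K1* and *H2-D1* windows. The NF-kB form of GGG, any 3 bases and TCCC stood in 2 of 6 and 5.55% of all, and the form of GGG, any 2 bases and TTTCC in 1 of 6 and 1.63% of all. The 2 NF-kB forms can overlap each other, and a site that reads the same on both strands was counted once per window. In the *Tap1* and *Tapbp* windows only CCAAT was found. A match to these letters describes the sequence and does not show that a factor binds there. The lack of a match does not show that a site is absent.

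Quiescent libraries held 12775593 to 23717013 counts and activated libraries 3172164 to 5427280, and a ribosomal sequence gene, CT010467.1, took 0.295 to 0.807% of counts in quiescent and 11.5 to 40.3% in activated libraries. The 8 genes together had 40223 to 73334 counts per quiescent and 805 to 4634 per activated library. Quiescent and activated libraries also differed in sex-linked transcripts: *Xist* was 1.20 to 7.17 CPM in quiescent and 451 to 817 CPM in activated libraries, and the Y-linked *Ddx3y* 289 to 570 CPM against 0 to 2.28 CPM. This is the pattern of male cells in the quiescent and of female cells in the activated libraries of both genotypes. Quiescent cells were taken directly after enzyme digestion of the muscle, a step after which the paper reports MYOD1 protein in nearly all cells. Culture, time since digestion, depth and the sex-linked difference therefore cannot be told apart in any comparison of activated with quiescent cells. The deleted gene, *Cxcr4*, was at 59.1 to 112 CPM in quiescent WT and 12.5 to 21.2 CPM in quiescent Cxcr4KO libraries, and at 14.4 to 33.3 and 5.39 to 13.7 CPM in the activated ones. All 12 satellite cell markers were detected in every group. Their summed level was 6290 to 10500 CPM in quiescent and 3120 to 4390 CPM in activated libraries. Detection alone does not check the label, since all endothelial, fibroadipogenic and smooth muscle markers were also detected in every group. The satellite cell marker with the highest mean was *Sdc4* in quiescent WT libraries, at 2510 CPM, and *Myod1* in activated WT libraries, at 1520 CPM.

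Libraries of sorted quiescent cells held abundant transcripts for the classical heavy chains. On a per-length scale, as CPM per kilobase of exon, quiescent WT libraries had *H2-D1* at 457 ± 48.9 (SD, n = 4), *H2-K1* at 386 ± 26.7 and *B2m* at 289 ± 48.3. *Tapbp* was at 26.6 ± 4.77, *H2-T23* at 22.9 ± 3.43, *Tap1* at 11.5 ± 2.75, *Tap2* at 10.4 ± 1.96 and *Nlrc5* at 2.77 ± 0.228 CPM per kilobase. The classical heavy chains and their light chain thus stood apart from the other 5 genes. The library ranges overlapped between the neighbours *H2-D1* and *H2-K1*, *H2-K1* and *B2m*, *Tapbp* and *H2-T23*, and *Tap1* and *Tap2*, whose order is not resolved, and did not overlap between *B2m* and *Tapbp*, *H2-T23* and *Tap1*, or *Tap2* and *Nlrc5*. The order of the means was the same in quiescent Cxcr4KO and activated WT libraries, and in activated Cxcr4KO libraries *H2-K1* at 68.2 and *H2-D1* at 63.6 CPM per kilobase (means, n = 2) changed places within overlapping ranges. The deposited FPKM of quiescent WT cells, 1 value per group from the authors, were 444 for *H2-D1*, 375 for *H2-K1*, 280 for *B2m* and 2.69 for *Nlrc5*. Reads shared with near-identical copies touch most members little. The share of 100-base transcript windows also found in another gene was 0% for *B2m* and *Nlrc5*, 0.957% for *H2-K1*, 3.59% for *H2-D1*, 3.15% for *H2-T23*, 1.93% for *Tap1* and 4.99% for *Tap2*, and it was 14.8% for *Tapbp*, nearly all with the overlapping gene model *Gm19412*.

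All 8 genes fell from quiescent to activated cells, in WT and in Cxcr4KO. Levels were 4.52-fold to 7.83-fold lower in WT and 3.18-fold to 11.2-fold lower in Cxcr4KO. In edgeR's quasi-likelihood test, 18.3% of all genes tested fell in WT and 20.4% in Cxcr4KO, at a Benjamini-Hochberg adjusted p under 0.05, here called passing the test. The median log2 fold change of the 8 genes was -2.39 in WT, beside -0.92 for all genes tested, and -2.81 in Cxcr4KO, beside -0.96. These all-gene medians rest on which activated libraries are fitted: without activated WT replicate 1 more low genes pass the filter, and the WT medians were -2.80 for the 8 genes and -2.73 for all 32990 genes. Without activated WT replicate 2 they were -1.98 and -1.55, and the Cxcr4KO medians were -2.53 and -1.73 without activated Cxcr4KO replicate 1 and -3.33 and -2.28 without activated Cxcr4KO replicate 2. Among the 6104 genes with an average log2 CPM of 4.52 or more, the level of the least abundant member, the medians were -0.18 and -0.16, and 31.2% and 32.8% fell. The median of such genes stayed between -0.28 and -0.03 in fits without 1 library. Of these 6104 genes, 10.3% in WT and 17% in Cxcr4KO had a log2 fold change as low as that of the least changed member. Because these are bulk libraries, fewer cells that express a gene and less of its RNA per cell cannot be told apart.

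**Figure D1:**
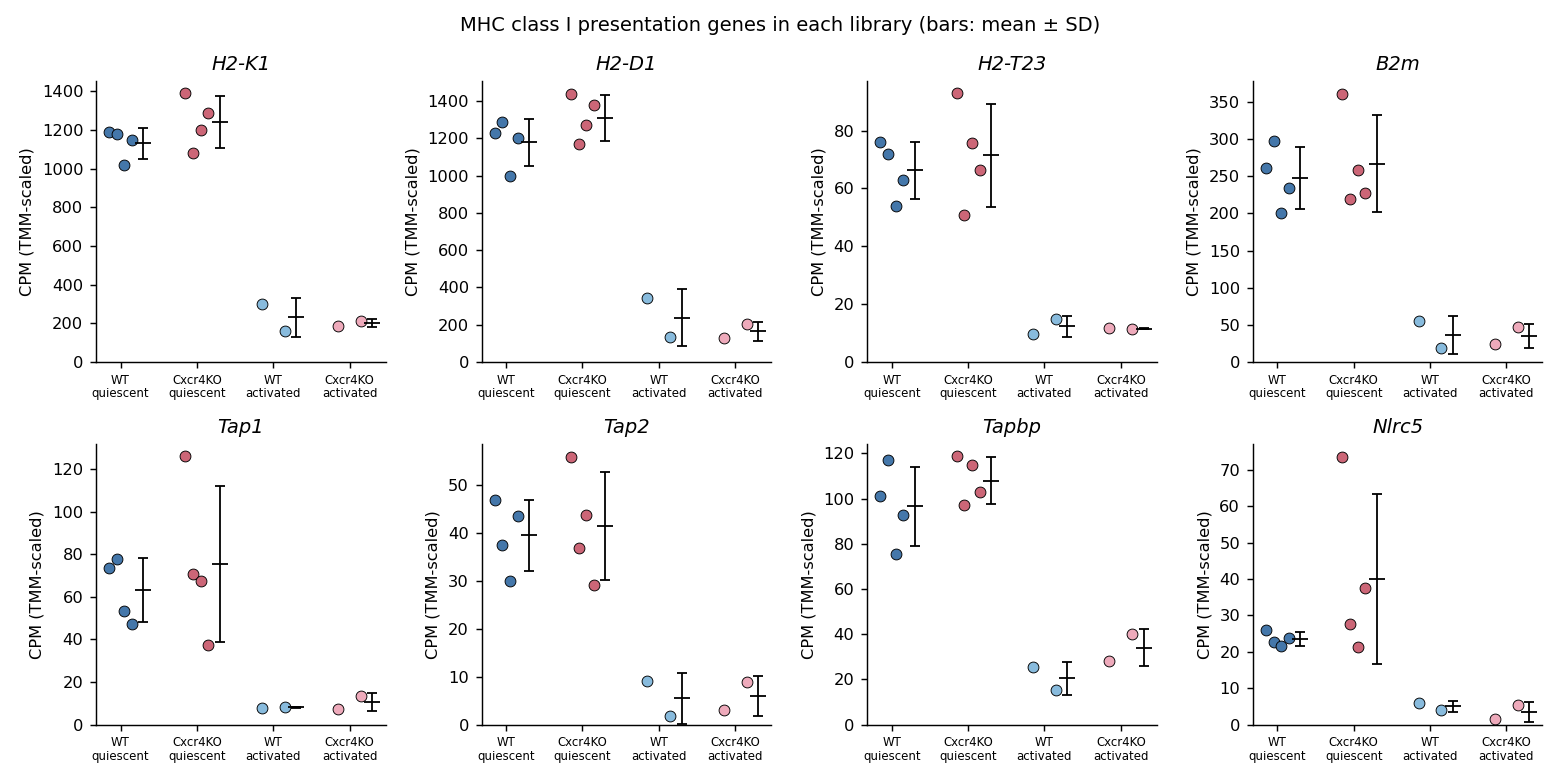
Level of each of the 8 genes in TMM-scaled CPM (y axes, each from 0) in every library of the 4 groups, with the mean and SD of each group beside the points. For all 8 genes every activated library lies below every quiescent library of its genotype, while WT and Cxcr4KO points overlap among quiescent libraries.

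The classical heavy chain *H2-K1* (ENSMUSG00000061232; GENCODE M21 on GRCm38, chromosome 17, 33996017 to 34000347, minus strand), which binds peptides for CD8 T cells, was at 1190, 1180, 1020 and 1150 CPM in quiescent WT replicates 1 to 4. It was at 300 and 159 CPM in activated WT replicates 1 and 2. The Cxcr4KO values were 1390, 1080, 1200 and 1290 CPM in quiescent and 187 and 214 CPM in activated libraries. Quiescent and activated libraries did not overlap in either genotype, as for all 8 genes, beside 38.4% of all genes in WT and 36.1% in Cxcr4KO that lay lower without overlap. In WT the change was -2.30 on the log2 scale with a standard error of 0.30, and in Cxcr4KO -2.63 with a standard error of 0.30 (adjusted p = 8.77e-06 and 2.11e-06 from edgeR).

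*H2-D1* (ENSMUSG00000073411; chromosome 17, 35262730 to 35267499, plus strand), the other classical heavy chain of the reference, was at 1230, 1290, 999 and 1200 CPM in quiescent WT and 344 and 131 CPM in activated WT libraries. The quiescent Cxcr4KO libraries held 1440, 1170, 1270 and 1380 CPM and the activated ones 127 and 201 CPM. Activated libraries were thus far below quiescent ones in both genotypes, and the activated WT pair was the wider. The log2 fold change was -2.31 in WT and -3.00 in Cxcr4KO (edgeR's adjusted p = 5.28e-05 and 4.15e-06). In WT it was -3.09 without activated replicate 1 and -1.72 without activated replicate 2. *H2-D1* and *H2-K1* stayed close to balance, since *H2-D1* made 49.5 to 52.3% of the pair's counts in quiescent WT libraries, 50.9 to 52.0% in quiescent Cxcr4KO, 45.2 and 53.4% in activated WT and 40.4 and 48.4% in activated Cxcr4KO libraries. Both activated values of Cxcr4KO lay below its quiescent range, while those of WT lay on either side of theirs.

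The nonclassical heavy chain *H2-T23* (ENSMUSG00000067212; chromosome 17, 36029773 to 36032855, minus strand) encodes Qa-1, which presents leader peptides of other class I chains to receptors of natural killer cells. It was at 76.1, 71.9, 53.8 and 63.0 CPM in quiescent WT and 9.64 and 14.9 CPM in activated WT libraries. Cxcr4KO libraries held 92.9, 50.8, 75.8 and 66.2 CPM when quiescent and 11.6 and 11.4 CPM when activated. Every activated library was below every quiescent one, and the activated values rest on 34 to 59 counts per library. *H2-T23* fell in both genotypes, with a log2 fold change of -2.47 in WT and -2.64 in Cxcr4KO (edgeR's adjusted p = 1.03e-05 and 4.09e-06).

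*B2m* (ENSMUSG00000060802; chromosome 2, 122147686 to 122153083, plus strand) encodes beta-2 microglobulin, the light chain that every class I heavy chain needs to fold. It was at 261, 298, 200 and 234 CPM in quiescent WT and 54.6 and 18.4 CPM in activated WT libraries. In Cxcr4KO cells *B2m* was at 361, 219, 259 and 227 CPM before and 23.9 and 46.5 CPM after culture. The activated WT libraries were the more divergent pair, and the log2 fold change of -2.73 in WT (standard error 0.40) became -3.68 without activated WT replicate 1 and -2.13 without replicate 2. In Cxcr4KO it was -2.92 (edgeR's adjusted p = 1.81e-05, beside 3.68e-05 in WT).

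*Tap1* (ENSMUSG00000037321; chromosome 17, 34187553 to 34197225) and *Tap2* (ENSMUSG00000024339; chromosome 17, 34203527 to 34216321), both on the plus strand, encode the subunits of the transporter. *Tap1* was at 73.6, 78.0, 53.2 and 47.3 CPM in quiescent WT and 7.84 and 8.32 CPM in activated WT libraries, and in Cxcr4KO at 126, 70.8, 67.4 and 37.5 CPM and then at 7.45 and 13.5 CPM. *Tap2* was at 46.9, 37.5, 30.0 and 43.5 CPM in quiescent WT and 9.15 and 1.75 CPM in activated WT libraries, and in Cxcr4KO at 55.8, 36.8, 43.7 and 29.2 CPM and then at 3.08 and 8.90 CPM. Activated libraries held 19 to 59 counts of *Tap1* and 4 to 56 counts of *Tap2*, and *Tap1* made 46.2 to 82.6% of the pair's counts in activated and 52.1 to 69.2% in quiescent libraries. *Tap1* fell, with log2 fold changes of -2.97 in WT and -2.84 in Cxcr4KO (edgeR's adjusted p = 4.70e-05 and 4.82e-05). *Tap2* fell too, with -2.69 in WT and -2.77 in Cxcr4KO (adjusted p = 0.000268 and 0.000187). The *Tap2* value in WT was -4.41 without activated WT replicate 1 and -2.05 without replicate 2, and in Cxcr4KO it was -3.72 without activated Cxcr4KO replicate 2.

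*Tapbp* (ENSMUSG00000024308; chromosome 17, 33915899 to 33929292, plus strand) encodes tapasin, which bridges TAP and the empty heavy chain. It was at 101, 117, 75.4 and 92.9 CPM in quiescent WT and 25.5 and 15.3 CPM in activated WT libraries. Cxcr4KO cells held 119, 97.2, 115 and 103 CPM when quiescent and 28.3 and 39.9 CPM when activated. No activated library reached the lowest quiescent one. The log2 fold change was -2.21 in WT and -1.67 in Cxcr4KO, the smallest fall of the 8 genes in Cxcr4KO (edgeR's adjusted p = 1.41e-05 and 0.000157).

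*Nlrc5* (ENSMUSG00000074151; chromosome 8, 94434356 to 94527272, plus strand), the activator of class I promoters, was at 26.1, 22.8, 21.5 and 23.7 CPM in quiescent WT and 6.04 and 3.94 CPM in activated WT libraries. Quiescent Cxcr4KO libraries had 73.5, 27.7, 21.2 and 37.5 CPM, and activated ones 1.54 and 5.48 CPM. The quiescent WT libraries were close together and the quiescent Cxcr4KO libraries wide, with replicate 1 far above the rest. *Nlrc5* fell, with a log2 fold change of -2.18 in WT (standard error 0.50, edgeR's adjusted p = 0.00262) and -3.49 in Cxcr4KO (standard error 0.54, adjusted p = 5.10e-05). Activated libraries held 6 to 37 of its counts, and the Cxcr4KO value moved to -2.86 without activated Cxcr4KO replicate 1 and to -4.66 without replicate 2.

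**Figure D2:**
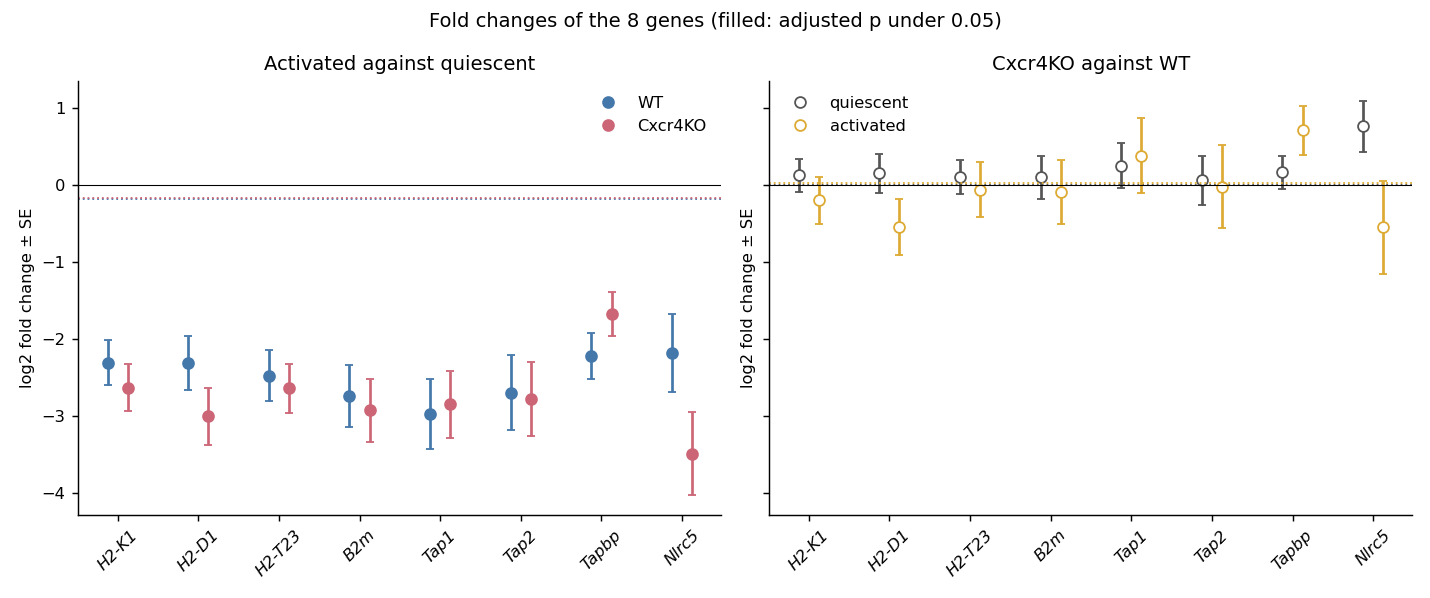
log2 fold change with its standard error (y axis) of each of the 8 genes for activated against quiescent cells in WT and Cxcr4KO (left) and for Cxcr4KO against WT in each state (right), filled where the adjusted p is under 0.05, with dotted lines at the median of the 6104 genes at least as abundant as the least abundant member. All 16 values on the left are filled and lie between -3.49 and -1.67, and all 16 on the right are open.

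Markers of several other cell types were also lower in activated libraries, and the satellite cell markers themselves fell (9 of 12 in WT and 10 of 12 in Cxcr4KO). The summed level of 10 hematopoietic markers was 95.7 to 425 CPM in quiescent and 38.9 to 68 CPM in activated libraries, and 6 of 10 fell in WT and 8 of 10 in Cxcr4KO. That of 6 markers of MHC class II antigen-presenting cells was 62.9 to 390 and 24.2 to 45.9 CPM, with 5 of 6 falling in each genotype, and that of 7 smooth muscle and pericyte markers 1470 to 2670 and 207 to 387 CPM, with 5 and 6 of 7 falling. The ranges of the other lists overlapped between states. They were 345 to 1540 and 118 to 811 CPM for 10 endothelial markers, of which 4 fell in WT and 3 in Cxcr4KO, 357 to 3280 and 288 to 752 CPM for 9 fibroadipogenic markers, of which 3 fell in each and 1 rose in Cxcr4KO, and 2.99 to 18.5 and 3.59 to 8.9 CPM for 8 T and NK markers. The fibroadipogenic marker that rose was *Pdgfra*, named after its values were seen, with a log2 fold change of 2.04 (edgeR's adjusted p = 0.00125). The hematopoietic markers *Tyrobp* and *Cd52* were at 0 in both activated WT libraries, as were 4 T and NK markers in each genotype.

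Endothelial cells carry much class I, and their markers were compared library by library. Activated WT replicate 1 had an endothelial sum of 811 CPM, and quiescent WT replicates 3 and 4 had 606 and 701 CPM. In the same order these libraries held 54.6, 200 and 234 CPM of *B2m* and 344, 999 and 1200 CPM of *H2-D1*. Among quiescent libraries, Cxcr4KO replicate 1, WT replicate 2, Cxcr4KO replicate 3 and WT replicate 1 had the highest endothelial sums, 1410 to 1540 CPM beside 345 to 701 CPM in the rest. The same 4 libraries were the 4 highest in *B2m* and *H2-T23*, so for 2 of 8 members, beside 5.56% of all genes tested. For each of the other marker lists, satellite cell markers included, this count was 0 of 8, beside 1.13 to 5.17% of all genes. The activated library with the higher endothelial sum of its genotype was the higher one for 6 of 8 members in WT, beside 43.5% of all genes, and for 7 of 8 in Cxcr4KO, beside 41.7%. The other activated library was the higher one for 31.4% of all genes in WT and 35.1% in Cxcr4KO. The remaining genes were equal in both libraries, which no member was, so the shares of all genes are low marks for comparison. Fibroadipogenic and smooth muscle markers had the same order as endothelial ones in activated libraries of both genotypes. Hematopoietic, class II and T and NK markers had it in Cxcr4KO and the opposite order in WT, and satellite cell markers had the opposite order in both. The part of any of these cells in the class I result was not tested beyond these values.

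Cxcr4KO and WT quiescent cells did not differ detectably in any of the 8 genes. The groups overlapped for all 8, where 1.7% of all genes had groups that did not. In edgeR's test 0 of 8 passed, beside 0.0155% of all genes, and 1 of 8 had an unadjusted p under 0.05, beside 1.74% of all genes; DESeq2 called 0 of 8 too. The log2 fold changes were all above 0, from 0.07 for *Tap2* to 0.77 for *Nlrc5*, with a median of 0.14 beside 0.03 for all genes. Their 95% intervals were -0.32 to 0.58 for *H2-K1*, -0.38 to 0.69 for *H2-D1*, -0.35 to 0.57 for *H2-T23*, -0.48 to 0.69 for *B2m*, -0.35 to 0.87 for *Tap1*, -0.60 to 0.73 for *Tap2*, -0.27 to 0.61 for *Tapbp* and 0.07 to 1.46 for *Nlrc5*. The *Nlrc5* value (unadjusted p = 0.0332, adjusted p = 1 in edgeR's test) was 0.29 without quiescent Cxcr4KO replicate 1.

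Quiescent Cxcr4KO replicate 1 was the highest of the 12 libraries for all 8 members, beside 9.92% of all genes tested and 9.14% of the 6104 abundant genes. These shares also count genes that were highest in an activated library, which no member was, so they are lower than among genes highest in a quiescent library. The lead of replicate 1 over the next library ran from 119 against 117 CPM for *Tapbp* to 126 against 78.0 CPM for *Tap1* and 73.5 against 37.5 CPM for *Nlrc5*. Without replicate 1, 4 of the 8 log2 fold changes between quiescent Cxcr4KO and WT cells were above 0 and 4 below, from -0.11 to 0.29, with a median of 0.01. This library was not the highest in hematopoietic markers, at 171 CPM where Cxcr4KO replicate 4 had 425 CPM, nor in class II markers, at 205 against 390 CPM, and it was the highest quiescent library in endothelial markers, at 1540 CPM beside 1470 CPM in WT replicate 2. It had the lowest fibroadipogenic level of the quiescent libraries, 357 CPM.

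After overnight culture, the 8 genes again did not differ detectably between genotypes. The deleted *Cxcr4* itself was not called here, at -1.35 on the log2 scale, where edgeR gave an adjusted p of 0.381. Among quiescent cells it was called, at -2.24 and an adjusted p of 0.00477. A deletion made by design was thus missed in activated cells, so the lack of calls there says little about the 8 genes. In edgeR's test 0 of 8 passed, beside 0.0504% of all genes, while 1 of 8 had an unadjusted p under 0.05, beside 8.37% of all genes, and DESeq2 called 0 of 8. Groups of 2 libraries left wide 95% intervals, from -0.84 to 0.45 for *H2-K1*, -1.30 to 0.22 for *H2-D1*, -0.80 to 0.69 for *H2-T23*, -0.95 to 0.79 for *B2m*, -0.63 to 1.40 for *Tap1*, -1.15 to 1.12 for *Tap2* and -1.81 to 0.72 for *Nlrc5*. *Tapbp* alone had groups that did not overlap, 25.5 and 15.3 CPM in WT against 28.3 and 39.9 CPM in Cxcr4KO, as did 24.7% of all genes. Its log2 fold change was 0.71 (standard error 0.32, 95% interval 0.05 to 1.38, unadjusted p = 0.0373, adjusted p = 0.575), and it was 0.34 without activated WT replicate 2 and 0.39 without activated Cxcr4KO replicate 2.

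The change in Cxcr4KO cells on activation was tested against that in WT cells with an interaction term. In edgeR's test 0 of 8 members passed, beside 0% of all genes, and 0 of 8 had an unadjusted p under 0.05, beside 6.59% of all genes. DESeq2 called 0 of 8. The widest gap was that of *Nlrc5*, with an interaction of -1.31 on the log2 scale, a larger fall in Cxcr4KO (95% interval of the difference -2.75 to 0.14, unadjusted p = 0.0734, adjusted p = 0.794). It was -0.70 without activated Cxcr4KO replicate 1, -2.55 without activated Cxcr4KO replicate 2 and -0.84 without quiescent Cxcr4KO replicate 1. It was -2.74 without both activated libraries numbered 2, and *Nlrc5* passed in none of these fits. For *H2-K1* the interval of the difference was -1.11 to 0.46 and for *B2m* -1.24 to 0.86. Differences within these intervals were not detectable at this depth and number of libraries.

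The genes that make and load peptides changed in both directions on activation. Of 14 genes of peptide supply and loading, 6 fell, 2 rose and 6 did not pass in WT, and 9 fell, 2 rose and 3 did not pass in Cxcr4KO. Beside 11.5% and 13.3% of all genes that rose and the 18.3% and 20.4% that fell, their median log2 fold change was -1.03 in WT and -1.07 in Cxcr4KO, and that of all genes -0.92 and -0.96. The immunoproteasome subunit *Psmb8*, which carries the chymotrypsin-like activity under interferon, was at 37.1, 29.2, 16.6 and 22.8 CPM in quiescent WT and 3.27 and 3.50 CPM in activated WT libraries. Cxcr4KO libraries held 48.3, 23.8, 27.8 and 17.9 CPM and then 2.57 and 4.56 CPM. *Psmb8* fell without overlap between states, with log2 fold changes of -2.97 in WT and -3.03 in Cxcr4KO (edgeR's adjusted p = 0.000116 and 6.81e-05).

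*Psmb5*, the constitutive subunit that *Psmb8* replaces, moved the other way. It was at 10.6, 14.3, 10.9 and 12.4 CPM in quiescent WT and 49.7 and 47.3 CPM in activated WT libraries, and in Cxcr4KO at 9.13, 12.6, 14.5 and 16.0 CPM and then at 42.1 and 41.7 CPM. *Psmb5* rose by 2.01 in WT and 1.68 in Cxcr4KO. *Psmb8* therefore made 60.4 to 77.7% of the pair's counts in quiescent WT and 52.9 to 84.1% in quiescent Cxcr4KO libraries, and 6.17 and 6.90% in activated WT and 5.75 and 9.85% in activated Cxcr4KO libraries. The ratio is within each library and does not depend on its scaling.

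The other immunoproteasome genes passed the test in Cxcr4KO only, and whether the genotypes differed there is given by the interaction, which none of the 14 genes passed. *Psmb9*, at 2.88 to 11.3 CPM in quiescent and 0 to 2.74 CPM in activated libraries, fell in Cxcr4KO (log2 fold change -2.33, adjusted p = 0.0364) and was at -1.83 in WT (adjusted p = 0.0892 in edgeR's test), and its constitutive partner *Psmb6* rose by 0.72 and 0.75 in WT and Cxcr4KO. *Psmb10* was at -0.42 in WT and fell in Cxcr4KO, at -0.95 (adjusted p = 0.0454 in edgeR's test), and its partner *Psmb7* did not pass in either, at 0.62 and -0.14. *Psmb10* made 60.6 to 72.2% of its pair's counts in quiescent WT and 33.9 and 59.3% in activated WT libraries. The interferon-induced proteasome activators *Psme1* and *Psme2* fell, with log2 fold changes of -1.55 and -2.69 in WT and -1.87 and -2.10 in Cxcr4KO. The start of *Psmb9* overlaps that of *Tap1* on the opposite strand, and whether counting used strand is not stated in the sources used here.

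**Figure D3:**
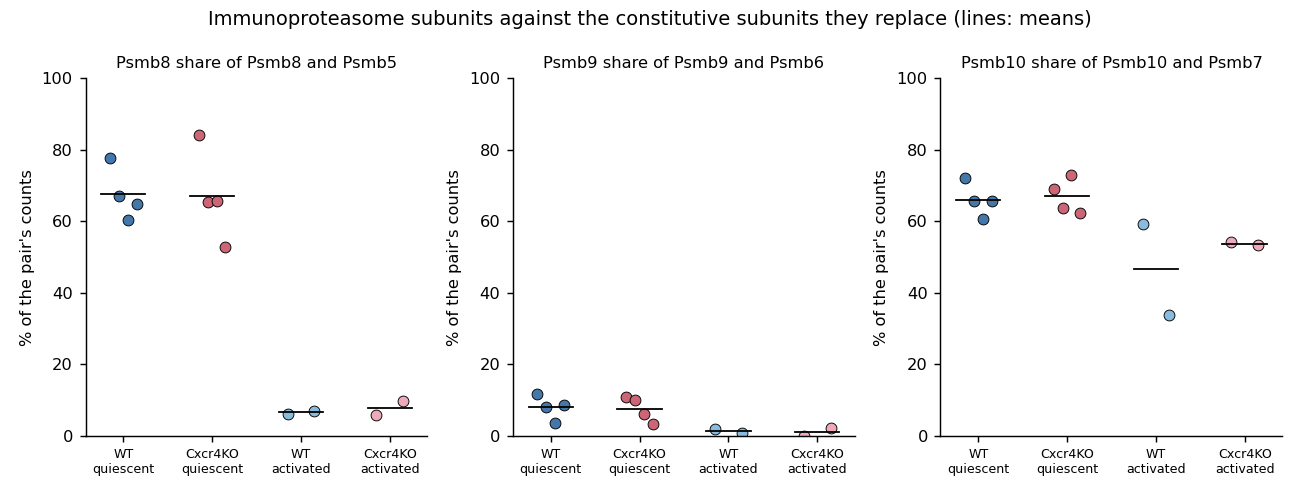
Share of the immunoproteasome subunit in the counts of its pair (y axis, percent) in each library of the 4 groups for 3 pairs, with lines at the group means. The *Psmb8* share lies at 52.9% or more in quiescent libraries and at 9.85% or less in activated libraries.

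In the endoplasmic reticulum, the trimming peptidase *Erap1* was at 24.1, 23.8, 15.7 and 23.7 CPM in quiescent WT and 8.17 and 5.69 CPM in activated WT libraries, and fell by 1.62 on the log2 scale. In Cxcr4KO it was at 20.3, 16.9, 24 and 23.8 CPM and then at 5.65 and 13 CPM, and fell with a log2 fold change of -1.18. The chaperone *Hspa5* fell in both, at -2.49 in WT and -2.702 in Cxcr4KO, and so did calreticulin, *Calr*, which holds heavy chains in the loading complex, at -0.83 and -0.92. *Pdia3*, the oxidoreductase of the loading complex, did not pass, at -0.24 in WT and -0.58 in Cxcr4KO, and neither did calnexin, *Canx*, at 0.64 and 0.63. *Tapbpl*, a second peptide editor, was at -1.22 in WT (adjusted p = 0.0709) and fell in Cxcr4KO, at -1.56. Among the partners of *Tapbp* in the loading complex, *Calr* therefore passed the test and *Pdia3* did not.

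Other class I heavy chains and class I-like genes that passed the test were lower too. Of 19 such genes 18 were in the table and tested, among them *H2-K2*, which is annotated as a transcribed pseudogene. In WT 10 fell and 8 did not pass, in Cxcr4KO 11 fell and 7 did not pass, and none rose, beside 18.3% and 20.4% of all genes that fell and 11.5% and 13.3% that rose. Their median log2 fold change was -1.63 in WT and -2.21 in Cxcr4KO, beside -0.92 and -0.96 for all genes, or -1.35 and -1.65 with genes at 0 counts in activated libraries set at the bound that 3 counts over the group allow. The Qa-2 family gene *H2-Q4* was at 602, 556, 524 and 562 CPM in quiescent WT and 71.4 and 24.5 CPM in activated WT libraries, and fell with a log2 fold change of -3.52. Its Cxcr4KO libraries held 703, 517, 554 and 544 CPM and then 21.8 and 37.9 CPM, a change of -4.28. *Fcgrt*, the heavy chain of the neonatal Fc receptor, which pairs with beta-2 microglobulin and carries no peptide, fell in WT at -3.00 and in Cxcr4KO at -2.61. *H2-T10*, a heavy chain seen by gamma delta T cells, fell at -2.85 and -3.16. *H2-M2* had 122 counts over the quiescent WT libraries and 0 over the activated ones, at least 4.64-fold lower, and *H2-T3* had 94 and 0, at least 3.5-fold lower, both in WT. In Cxcr4KO *H2-M2* had 110 and 0 counts, at least 3.86-fold lower. *H2-M3*, which shares the spacing of TGACGC and ATTGG shown above and was singled out for that after its values were seen, was at 9.45, 8.94, 5.22 and 7.22 CPM in quiescent WT and 4.57 and 0.876 CPM in activated WT libraries, and fell there, at -1.33 (adjusted p = 0.0494 in edgeR's test). It was at -0.14 in Cxcr4KO (adjusted p = 0.816).

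*H2-Q6*, a Qa-2 gene, had activated WT libraries far apart. It was at 197, 226, 99.9 and 122 CPM in quiescent WT and 187 and 21.5 CPM in activated WT libraries, where its log2 fold change of -0.61 did not pass (adjusted p = 0.404). Cxcr4KO libraries held 312, 118, 204 and 130 CPM and then 14.1 and 36 CPM, a fall of -2.92 on the log2 scale. Of its 100-base transcript windows 13% were shared with other genes, mostly *H2-Q7*, and of those of *H2-Q4* 14.1%, so reads of these genes may be split between copies.

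Most regulators of class I transcription that changed were lower. Of 21 genes, 12 fell, 3 rose and 6 did not pass in WT, and 10 fell, 3 rose and 8 did not pass in Cxcr4KO, beside 18.3% and 20.4% of all genes that fell and 11.5% and 13.3% that rose. The median was -1.35 in WT, below that of all genes at -0.92, and -0.83 in Cxcr4KO, above that of all genes at -0.96. *Irf1*, the interferon regulatory factor that binds the response element of class I promoters, was at 407, 373, 223 and 168 CPM in quiescent WT and 29.1 and 17.5 CPM in activated WT libraries. The Cxcr4KO libraries held 483, 250, 318 and 124 CPM and then 17.5 and 25.6 CPM. Activated libraries lay far below quiescent ones, and *Irf1* fell with a log2 fold change of -3.63 in WT and -3.77 in Cxcr4KO (edgeR's adjusted p = 2.29e-05 and 1.45e-05).

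Genes of interferon signaling moved in both directions. *Stat2* and *Irf9*, parts of the factor that reads interferon response elements, fell, at -3.59 and -3.08 in WT and -4.49 and -3.46 in Cxcr4KO on the log2 scale. The kinases *Jak1* and *Jak2* fell, at -1.72 and -1.87 in WT and -1.71 and -2.61 in Cxcr4KO. Among receptors, *Ifnar2* fell, at -1.74 in WT and -1.39 in Cxcr4KO, *Ifngr2* rose by 2.05 and 1.29, and *Ifngr1* and *Ifnar1* did not pass.

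NF-kB subunits and the factors of the X and Y boxes completed the list. *Nfkb1* fell, at -3.18 in WT and -3.93 in Cxcr4KO, and *Rela* at -2.04 and -2.13. *Rfx5*, which binds the X box, was at 42.1, 35.8, 30.9 and 33.7 CPM in quiescent WT and 20.1 and 6.57 CPM in activated WT libraries, and fell, at -1.35. In Cxcr4KO *Rfx5* was at 26.7, 45, 38.8 and 40.5 CPM and then at 12.8 and 4.79 CPM, and fell, at -2.11. Its partner *Rfxap* rose by 0.90 in WT and was at 0.61 in Cxcr4KO (adjusted p = 0.142 in edgeR's test), while *Rfxank* did not pass, at -1.07 and -0.40. Of the Y box factors, *Nfyb* fell, at -0.78 and -0.80, *Nfya* fell in WT, at -2.29, and was at -0.83 in Cxcr4KO (adjusted p = 0.131), and *Nfyc* was at 0.64 in WT (adjusted p = 0.087) and rose by 0.93 in Cxcr4KO. Of the CREB family, *Atf1* rose by 1.07 and 1.03, and *Creb1* was at -0.02 and 0.01.

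**Figure D4:**
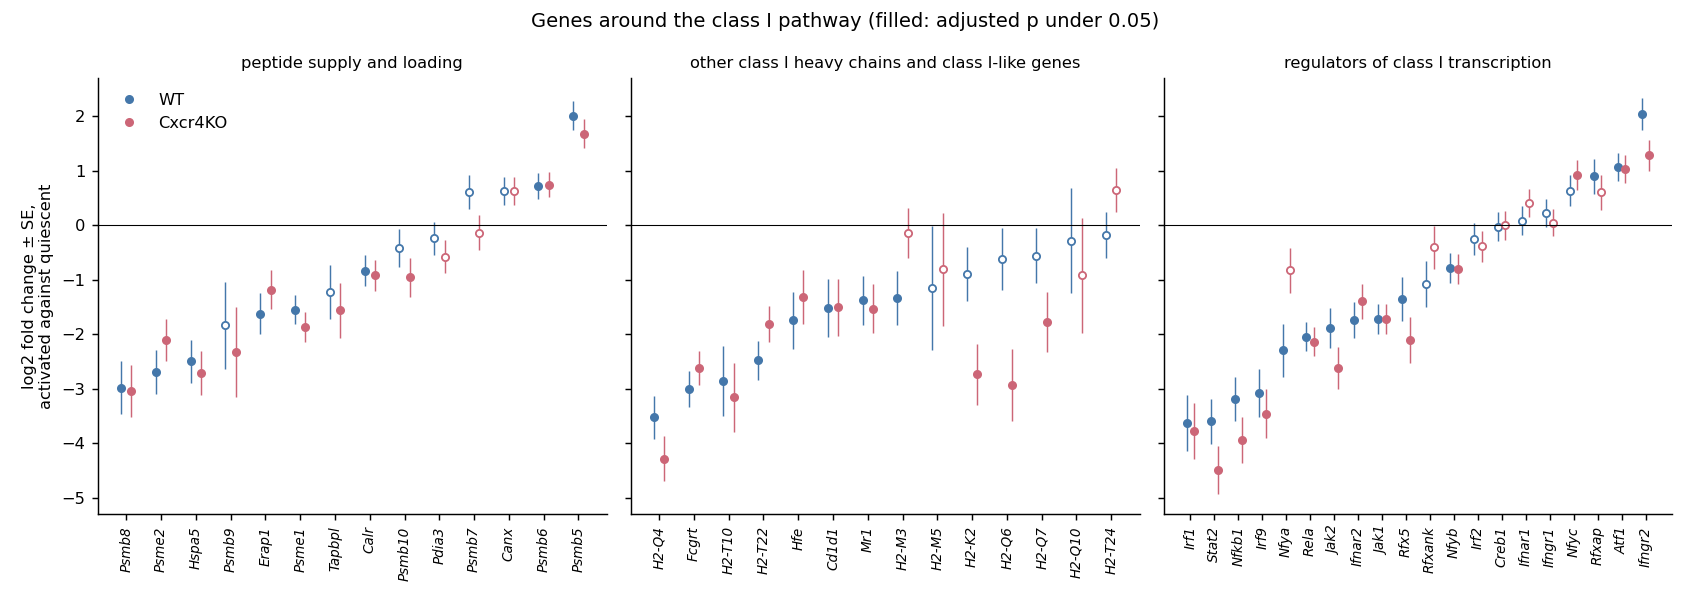
log2 fold change with its standard error for activated against quiescent cells (y axis) in WT and Cxcr4KO for the genes of 3 lists, in order of the WT value, filled where the adjusted p is under 0.05 and without 4 genes that had 0 counts in an activated group and 1 gene not reported here. *Psmb5* at 2.01 and *Ifngr2* at 2.05 in WT stand at the high ends and *Psmb8*, *H2-Q4* and *Irf1* at the low ends of their lists.

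Cxcr4KO and WT cells did not differ detectably in these lists. In edgeR's test 0 of 14 peptide supply genes, 0 of 18 class I-like genes and 0 of 21 regulators passed in quiescent cells, and the same held in activated cells and for the interaction. Of all genes tested, 0.0155%, 0.0504% and 0% passed in these contrasts, so counts of 0 say little about the lists. At an unadjusted p under 0.05 the counts were 0, 0 and 0 in quiescent cells, beside 1.74% of all genes. They were 0, 2 and 1 both in activated cells and for the interaction, beside 8.37% and 6.59% of all genes. These were *H2-Q6* and the class I pseudogene *H2-K2*, at -2.07 and -1.36 on the log2 scale between activated Cxcr4KO and WT cells, and *Nfya*, at 1.30 (adjusted p = 0.352, 0.585 and 0.516 in edgeR's test).

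The genes with the pattern most like *H2-K1* over the 12 libraries were sought by the root mean square difference of centred log2 CPM among 25770 genes. The nearest were *Birc2*, an inhibitor of apoptosis of the NF-kB pathways, at a difference of 0.183, the semaphorin *Sema4a* at 0.195 and *H2-D1* at 0.202. For *B2m* they were the surface protein *Cd200* at 0.172, *Parp9* at 0.194 and *Tns2* at 0.229. *H2-D1* ranked 4 and *Tap2* 6 among the genes nearest to *B2m*, while *Nlrc5* ranked 1140 from *H2-K1* and 276 from *B2m*. The points share the 2 states, whose difference in depth and source is part of every such pattern.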

How the data were processed

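The authors trimmed paired reads of polyA RNA with Trim Galore 0.6.0, mapped them to GRCm38.p6 with STAR 2.7.2a and counted them on GENCODE genes. The deposited counts are whole reads per gene, and the deposited FPKM are 1 value per group whose scaling is not given in the sources used here. The counting of multi-mapping reads is likewise not given in the sources used here. Counts were filtered by filterByExpr, scaled by TMM and fitted with 1 mean per group in edgeR 4.0.16 (R 4.3.3). Contrasts were tested by the quasi-likelihood F test with Benjamini-Hochberg adjustment over 25771 genes, and each standard error is the absolute fold change over the root of F. Levels are CPM on TMM library sizes. The log2 CPM of the pattern search, the library correlations and the check of the prior count had a prior count of 2. CPM were divided by GENCODE M21 exon length to compare genes. DESeq2 1.42.0, other scalings, filters and each library left out served as alternatives. The test was also run on simulated counts with few genes changed in a single group. That setting is unlike the broad change between states here, and no result rests on it. The members, lists and rules for naming genes were chosen with earlier results of these data known: every member is named, with fixed partner genes (1 of them, counted in its list, is not reported here), the 4 largest changes per list and contrast among those that passed and the 3 nearest patterns, and other list genes were named after their values were seen.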

Additional observations from a re-analysis of the deposited data

How the results depend on the processing

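All 8 members fell on activation in both genotypes, and 0 of 8 differed between genotypes or in the interaction, under each of the 11 alternatives (9 for the interaction), each fit without 1 library and the fit without both activated libraries numbered replicate 2, which was added after seeing the data because they hold most ribosomal sequence. Where a fit left 1 library in a group, that library was assumed to vary like the others. Numbers of genes called over the whole table moved with the settings, from 2 to 334 in activated cells (main 13), 0 to 170 for the interaction (main 0), 3 to 50 in quiescent cells (main 4), 6750 to 8477 for activation in WT (main 7674) and 7633 to 9683 in Cxcr4KO (main 8693), and without 1 library from 0 to 211, 0 to 82, 3 to 7, 4524 to 8026 and 5066 to 8780. The median log2 fold change of all genes on activation in WT was -1.93 with every counted gene kept and -0.46 with a mean count of at least 10, beside -0.92, and it ran from -2.73 to -0.72 without 1 library. In Cxcr4KO it was -0.96, from -2.28 to -0.75 without 1 library, and without both activated replicates numbered 2 it was -1.59 in WT and -2.30 in Cxcr4KO. The members' median ran from -2.80 to -1.98 in WT and -3.33 to -2.53 in Cxcr4KO without 1 library, so its distance from all genes depends on the filter and on the activated libraries fitted.

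Deviations of same-numbered WT and Cxcr4KO libraries correlated at 0.05, 0.122, -0.05 and 0.296 in quiescent and -0.024 in activated cells, not above 0.1 in every pair, so the numbers were not taken to pair the samples. Same-numbered quiescent libraries were alike in total counts (17532019 and 17238391, 12775593 and 13075208, 23058947 and 22897189, 22785815 and 23717013), and the pairs numbered 2 and 4 had the highest of all quiescent correlations, which is a hint from the data and not from the design. The replicate block changed no call of a member, and with it the values of *B2m* and *Tap2* between activated Cxcr4KO and WT cells, 0.003 and 0.114, and the interaction of *Tap2*, 0.064, changed sign. It gave 5, 23 and 6 genes called over the whole table in quiescent cells, activated cells and the interaction.

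Signs of genotype differences that did not pass were not stable. On the compared groups alone the *Tap2* value in activated cells was 0.021 in edgeR and 0.029 in DESeq2. Without both activated replicates numbered 2, the values of *H2-T23* and *Tap1* in activated cells were 0.234 and -0.102, and the interactions of *H2-T23*, *Tap1* and *Tapbp* were 0.136, -0.339 and -0.035. Without 1 library, the activated values ran from -0.714 to 0.836 for *B2m*, -1.151 to 0.225 for *H2-D1*, -0.658 to 0.241 for *H2-K1*, -0.470 to 0.175 for *H2-T23*, -1.802 to 0.064 for *Nlrc5*, -0.166 to 0.727 for *Tap1* and -1.037 to 1.679 for *Tap2*. The quiescent values ran from -0.077 to 0.213 for *B2m*, -0.044 to 0.248 for *H2-T23*, -0.106 to 0.481 for *Tap1* and -0.113 to 0.201 for *Tap2*. The interactions ran from -0.813 to 0.738 for *B2m*, -1.303 to 0.073 for *H2-D1*, -0.783 to 0.116 for *H2-K1*, -0.573 to 0.071 for *H2-T23*, -0.413 to 0.488 for *Tap1* and -1.096 to 1.620 for *Tap2*. The cause was not tested. A prior count of 0.25 moved 1 of 32 mean levels by more than its SD, *H2-T23* in activated Cxcr4KO libraries, to 3.524 log2 CPM.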
